A study of Rattus norvegicus with 4 samples.

Results

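The genes described here handle zinc, iron and copper in RSC96, a rat cell line of Schwann origin; Schwann cells are the glia that wrap peripheral axons. They were chosen by name: all rows of the solute carrier families Slc11, Slc30, Slc31, Slc39 and Slc40, with the metallothioneins, ferritins and other metal genes of a fixed list. This gave 43 genes of 17778 gene rows, each with a single row, and 31 of them passed the minimum of 1 FPKM (fragments scaled by transcript length and library size), averaged over the libraries, that a gene needed to be tested. All cells were of generation 4 and had spent a night without serum. The treated group then received recombinant rat IL-22 at 100 ng/ml for 48 h, and the control group received the solvent alone, 0.1% bovine serum albumin; the labels leave out for how long. Each group had 2 libraries, and nothing states that these came from separate cultures, so the spread behind the p-values is that of the libraries and may be technical only.

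Metal ions are needed by many enzymes and harmful when free, so cells import, store and export them under tight control. Importers of the Slc39 (ZIP) family bring zinc into the cytosol, exporters of the Slc30 (ZnT) family take it out or into vesicles, and metallothioneins bind zinc and copper through clusters of cysteines. Iron enters with transferrin through the transferrin receptor, is stored in ferritin shells of heavy and light chains, and leaves through ferroportin. In Schwann cells, metal supply is known to matter for myelin, whose synthesis uses iron-dependent enzymes. IL-22, a relative of IL-10, acts on its target cells mainly through STAT3.

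Summed FPKM came to 636818 and 630119 for the controls and 658909 and 669549 for the IL-22 libraries. The read depth is unknown, but the spacing of low values put it, relative to control library 1, at 1.28 in control library 2 and at 1.08 in both IL-22 libraries. Of 9485 gene rows tested, 58.4% passed the limma threshold, an adjusted p under 0.05, with 27.6% higher and 30.8% lower with IL-22. Of 17 Schwann cell markers with a row, Mbp and Cdh19 were listed at 0 in all 4 libraries, and Sox10 and S100b stood at or under 0.0760 FPKM. Of 7 such markers tested, 6 were higher with IL-22 and 1 was lower, but Egr2 and Erbb3 met the test minimum through their IL-22 libraries alone, and the lower one, Gfap, through its controls alone. Over all markers of this list the summed level went from 51.4 and 54.4 FPKM to 100.3 and 106 FPKM. Of 14 macrophage and leukocyte markers 6 were at 0 throughout, the others summed to between 4.04 and 6.63 FPKM, and neither of the 2 tested passed, also at an unadjusted p under 0.05. Of 10 fibroblast markers, Dcn and Lum were at 0 throughout. Of 7 tested, 4 were higher (Fbln1, Pdgfra, Pdgfrb and Thy1) and 2 lower (Col1a1 and Col1a2), while their summed level, held mostly by Thy1 and Col1a2, was between 502 and 519 FPKM in all libraries. The part of these markers in the results below was not tested. In bulk RNA, fewer cells that express a gene and less RNA per cell cannot be told apart.

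Of the 31 tested metal genes 10 were higher and 8 lower with IL-22 by limma, and 13 did not pass. These shares, 32.3% and 25.8%, lie near the 27.6% and 30.8% of all tested genes, so the set as a whole did not stand apart by its count. Its median difference was 0.072 on the log2(FPKM + 1) scale, against -0.022 over all tested genes, and its median absolute difference was 0.32, as over all tested genes. IL-22 and control libraries did not overlap for 27 of the 31, where 80.1% of all tested genes were separated in this way. The IL-22 libraries lay above for 16 of them and below for 11, against 38.4% and 41.7% of all tested genes, and 51.6% and 35.5% of the 31. Only 6 of the 31 passed with a difference of at least 0.5, against 30.7% of all tested genes: Mt1a, Mt2A, Ftl1 and Slc31a2 were higher, and Slc39a13 and Slc30a1 were lower. The smallest p that an exact permutation test of 2 libraries against 2 can give is 0.333, so the calls depend on limma pooling its variance estimate over all genes.

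**Figure D1:**
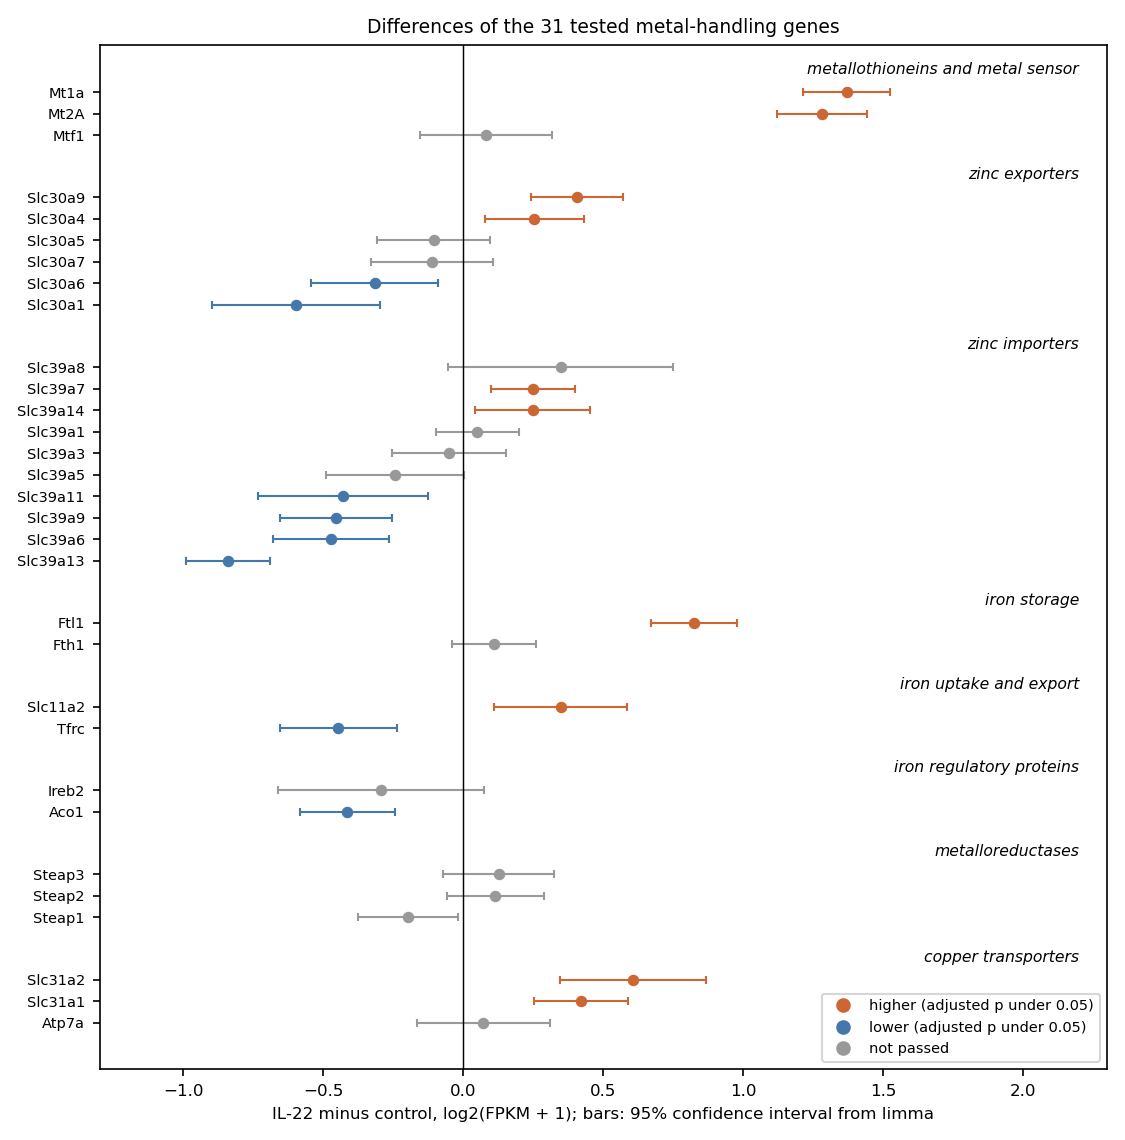
Differences of the 31 tested genes between IL-22 and control libraries on the log2(FPKM + 1) scale, grouped by role, with 95% confidence intervals from limma (n = 2 per group). Mt1a and Mt2A lie farthest to the right at 1.37 and 1.28, and Slc39a13 farthest to the left at -0.84.

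The promoters of 3 genes are shown because they carry a known metal-responsive element and because the metallothionein genes rose while the zinc exporter gene Slc30a1 fell. MTF1, the zinc-sensing transcription factor, is known to activate all 3 through metal response elements. The sequences are the 250 bases before the RefSeq start site in the build GRCr8, which is not the build of the files. Capitals mark each match to TGCACNC or TGCGCNC on either strand. The Mt1a promoter lies at chr19:10832976-10833225 and the Mt2A promoter at chr19:10838709-10838958, both on the minus strand, and the Slc30a1 promoter lies at chr13:106021769-106022018 on the plus strand.
Mt1a: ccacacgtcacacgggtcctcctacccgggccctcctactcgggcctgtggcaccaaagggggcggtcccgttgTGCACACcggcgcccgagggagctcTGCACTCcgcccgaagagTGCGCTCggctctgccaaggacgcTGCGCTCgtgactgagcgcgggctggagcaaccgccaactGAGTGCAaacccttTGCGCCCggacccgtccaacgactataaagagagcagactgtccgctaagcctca
Mt2A: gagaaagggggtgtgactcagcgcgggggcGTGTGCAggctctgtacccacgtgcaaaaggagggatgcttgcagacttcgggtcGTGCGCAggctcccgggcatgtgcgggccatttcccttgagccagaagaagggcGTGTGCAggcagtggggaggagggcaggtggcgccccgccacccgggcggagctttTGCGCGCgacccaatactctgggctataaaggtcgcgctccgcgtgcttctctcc
Slc30a1: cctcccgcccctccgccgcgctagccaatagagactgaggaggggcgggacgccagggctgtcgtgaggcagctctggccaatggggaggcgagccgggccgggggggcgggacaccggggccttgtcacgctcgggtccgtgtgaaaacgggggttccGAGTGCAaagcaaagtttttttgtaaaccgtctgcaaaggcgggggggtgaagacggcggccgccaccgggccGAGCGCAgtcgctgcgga

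The Mt1a promoter held 6 matches, of which 5 read forward, and the first match began 176 bases before the start. The Mt2A promoter held 4 matches, of which 3 lay on the reverse strand, and the Slc30a1 promoter held 2, both reversed. In both metallothionein promoters the match nearest to the start began 55 bases before it. At least 4 matches occurred in 0.266% of the 33469 promoters of the same length, and at least 6 in 0.0269%. Ftl1 and Slc39a14, which rose, had no promoter entry and were not searched. Of the 43 metal genes 34 matched a promoter entry by symbol and Mt1a by its synonym Mt1, and the first entry was used for 3 genes with 2 entries. At least 1 match was present in 17 of these 35 promoters, or 48.6%, against 20.6% of all promoters. Matches stood before 5 of 8 genes that rose, 4 of 8 that fell and 5 of 11 that did not pass, so they were found on every side of the test. The other motifs searched were the antioxidant response element (TGACNNNGC), in 28.6% of these 35 promoters against 10.1% of all, the hypoxia response element (ACGTG), in 25.7% against 16.6%, and the STAT site (TTCNNNGAA), in 5.71% against 7.67%. The STAT site matched in 0 of 8 promoters searched for genes that rose and 0 of 8 for those that fell. With 7.67% of all promoters matching, 8 are too few for a count of 0 to stand apart. Mt1a held 1 hypoxia and 1 antioxidant match, Mt2A held 2 and 1, and Slc30a1 held 1 antioxidant match, so the metal response element was not the single motif shared by the 3. The 2 hypoxia matches of Mt2A were the same stretch, CACGTG, read on each strand. The shares were not matched for base composition, and the Mt1a, Mt2A and Slc30a1 promoters held 66.4%, 66.0% and 69.2% G or C. A match describes letters and not a bound site.

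The metallothionein genes Mt1a and Mt2A rose together. Mt1a, which encodes a small cysteine-rich protein that binds zinc and copper, measured 220.0 and 226 FPKM in the control libraries and 549 and 609 FPKM with IL-22. It rose 2.59-fold, from 223 ± 4.59 to 579 ± 43.0 FPKM (SD, n = 2), a difference of 1.37 ± 0.07 (SE; limma adjusted p = 9.17e-07). That difference ranked 205 from the top among the 9485 tested genes. Mt2A, its neighbour in the genome and the second such gene, measured 719 and 713 FPKM in controls and 1649.5 and 1839.6 FPKM with IL-22. It rose 2.44-fold, a difference of 1.28 ± 0.07 (limma adjusted p = 1.49e-06). Both IL-22 libraries lay far above both controls for either gene, and IL-22 library 2 was the higher of the pair in both. The ratio of Mt2A to Mt1a was 3.27 and 3.15 in controls and 3.01 and 3.02 with IL-22, so the proportion between them moved little while their sum went from 939 ± 0.377 to 2323 ± 177 FPKM.

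Mt3 and Mt4, which follow Mt2A in the RefSeq gene order with no gene between, were listed at 0 in all 4 libraries, so Mt1a and Mt2A were the expressed genes of that cluster. Mt3 is known as the metallothionein of the nervous system, and Mt4, which was not among the 43 genes, as that of stratified epithelium. Mtf1, which encodes the zinc sensor itself, measured 8.71 and 9.83 FPKM in controls and 9.47 and 10.3 FPKM with IL-22. The groups overlapped and the gene did not pass (0.082 ± 0.10, limma adjusted p = 0.521), with a 95% interval from -0.15 to 0.32. The rat genome holds further copies and pseudogenes of Mt1, so reads of such copies may have been counted in the row of Mt1a.

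**Figure D2:**
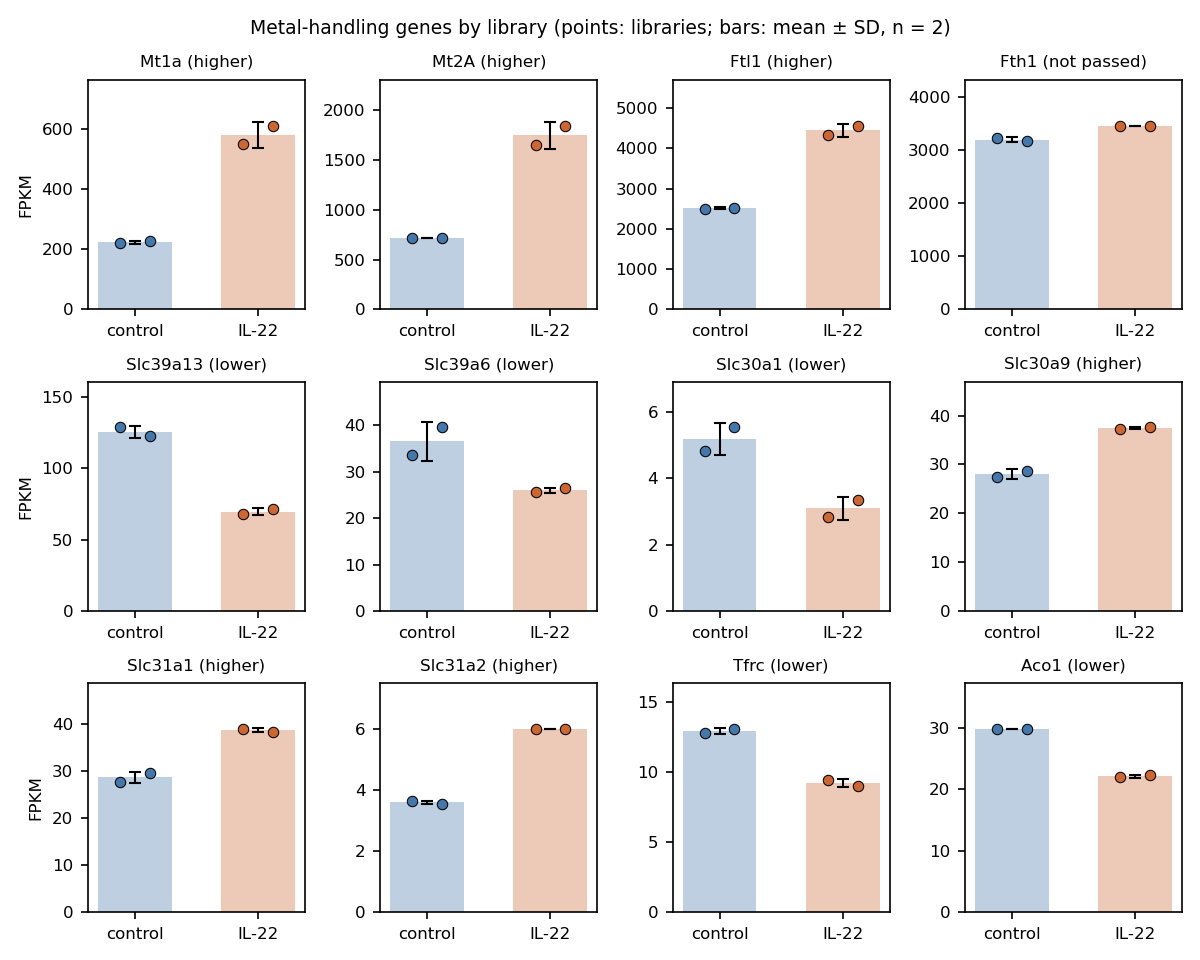
FPKM of 12 metal-handling genes in each library (points), with the mean and SD of 2 libraries per group (bars and error bars) and the limma call in each title. The 12 genes were picked for display. All 12 show separate groups, where 80.1% of all tested genes did. Fth1 alone of the 12 did not pass the test, which 58.4% of all tested genes passed.

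Of 6 tested zinc exporters of the Slc30 family 2 were higher and 2 lower, or 33.3% each, near the 27.6% and 30.8% of all tested genes. Slc30a1 encodes ZnT1, the main zinc exporter of the plasma membrane and a gene that zinc itself induces through MTF1 in many cells. It measured 4.84 and 5.54 FPKM in controls and 2.84 and 3.35 FPKM with IL-22, and both IL-22 libraries lay below both controls. Slc30a1 fell to 0.596 of its control level, a difference of -0.60 ± 0.13 (limma adjusted p = 0.00413). It therefore moved against Mt1a and Mt2A, which share its known regulator. Slc30a9, a zinc transporter of mitochondria, measured 27.3 and 28.7 FPKM in controls and 37.3 and 37.6 FPKM with IL-22. The groups were apart by more than their spread, and it rose 1.34-fold (0.41 ± 0.07, limma adjusted p = 0.00129).

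The other exporters act on vesicles and the secretory pathway. Slc30a4, which fills vesicles with zinc, was higher at 26.3 and 25.4 FPKM against 22.0 and 21.0 FPKM (0.25, limma adjusted p = 0.0202). Slc30a6, which pairs with Slc30a5 in the Golgi, was lower at 7.04 and 6.71 FPKM against 8.76 and 8.86 FPKM (-0.32, limma adjusted p = 0.0231). Neither call is firm. That of Slc30a4 was lost without control library 2 or either IL-22 library and with equal summed FPKM (over 16 alternatives, limma gave adjusted p between 0.0100 and 0.127), and that of Slc30a6 without any single library (over 16 alternatives, limma gave adjusted p between 0.0107 and 0.116). Slc30a5 and Slc30a7, which supply zinc to secreted enzymes, overlapped between groups at 24.1 and 22.3 FPKM and at 15.9 and 14.6 FPKM, and did not pass. Slc30a2, Slc30a8 and Slc30a10, known from mammary gland, insulin granules and manganese export, were at 0 in all libraries. Slc30a3, the transporter of synaptic vesicles, was under the test minimum at 0.248 and 0.193 FPKM in controls and 0.535 and 0.534 FPKM with IL-22. Without the minimum it was called higher (limma adjusted p = 0.0143).

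Zinc importers of the Slc39 family gave 2 higher, 4 lower and 4 not passed among 10 tested, where 27.6% and 30.8% of all tested genes were higher and lower. Slc39a13, which encodes ZIP13, a transporter of the Golgi and vesicles that connective tissue needs, was the most abundant importer in controls. It measured 129 and 123 FPKM in controls and 67.9 and 71.5 FPKM with IL-22. Slc39a13 fell to 0.554 of its control level, from 126 ± 4.21 to 69.7 ± 2.54 FPKM (-0.84 ± 0.07, limma adjusted p = 1.05e-05), the largest fall among the 31 tested metal genes and rank 471 from the bottom among all tested genes. Slc39a6, an importer of the plasma membrane, measured 33.5 and 39.6 FPKM in controls and 25.5 and 26.4 FPKM with IL-22. The controls differed more from each other than the IL-22 libraries did, yet both stood above them (-0.47 ± 0.09, limma adjusted p = 0.00191). Slc39a9 encodes ZIP9, a zinc transporter also described as a membrane receptor for androgens. It measured 24.4 and 23.4 FPKM in controls and 16.1 and 18.3 FPKM with IL-22, and fell by 0.45 on the log2 scale (SE 0.09, limma adjusted p = 0.00205).

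The fourth lower importer, Slc39a11, measured 16.7 and 12.4 FPKM in controls and 9.78 and 11.1 FPKM with IL-22. Its lower control lay close to its higher IL-22 library. The difference of -0.43 ± 0.13 (limma adjusted p = 0.0211) went to -0.24 without control library 1 and lost its call there, without IL-22 library 1 and without the expression minimum (over 16 alternatives, limma gave adjusted p between 0.00169 and 0.167). The members that rose were Slc39a7 and Slc39a14. Slc39a7, which releases zinc from the endoplasmic reticulum, was higher at 80.7 and 85.3 FPKM against 70.9 and 68.5 FPKM (0.25 ± 0.07, limma adjusted p = 0.0108). Its call was lost without IL-22 library 2 (over 16 alternatives, limma gave adjusted p between 0.00425 and 0.117).

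Slc39a14 encodes ZIP14, an importer of zinc, manganese and iron not bound to transferrin, and is known for its induction in liver by IL-6, another cytokine that acts through STAT3. It measured 11.001 and 11.1 FPKM in controls and 13.7 and 13.0 FPKM with IL-22. The rise was small, 1.20-fold (0.25 ± 0.09, limma adjusted p = 0.0407), and the call was lost without any single library, without the expression minimum and with equal summed FPKM (over 16 alternatives, limma gave adjusted p between 0.0278 and 0.210). Its nearest relative in cargo, Slc39a8, which carries zinc and manganese, was low at 1.10 and 0.726 FPKM in controls and 1.33 and 1.52 FPKM with IL-22. It reached the test minimum through its IL-22 libraries and did not pass (limma adjusted p = 0.122).

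Slc39a1, a housekeeping importer of the plasma membrane, stayed between 54.2 and 56.9 FPKM in all libraries (0.050, 95% interval from -0.10 to 0.20, limma adjusted p = 0.534). Slc39a3, another plasma membrane importer, overlapped between groups at 14.8 ± 0.794 and 14.2 ± 0.465 FPKM (limma adjusted p = 0.641). Slc39a5 measured 7.58 and 6.99 FPKM in controls and 6.19 and 5.80 FPKM with IL-22 and did not pass (limma adjusted p = 0.0809). Slc39a2 and Slc39a12 were at 0 throughout, and Slc39a4, the intestinal importer, was at 0.0556 FPKM in IL-22 library 1 and at 0 in the other libraries. The zinc importer gene Slc39a10 had no row in the table and was not analysed here.

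Summed over the family, the importers went from 363 and 355 FPKM in controls to 291 and 304 FPKM with IL-22. Most of this was Slc39a13: without it the sums were 235 and 232 FPKM in controls and 223 and 233 FPKM with IL-22, and the groups overlapped. The share of Slc39a13 in the importer sum went from 35.4% and 34.6% to 23.3% and 23.5%, while that of Slc39a7 went from 19.5% and 19.3% to 27.7% and 28.0%. With IL-22, Slc39a7 was thus the most abundant importer of the family. The summed exporters changed far less, from 103 and 104 FPKM to 111 and 110.1 FPKM. These sums are of mRNA per length and were not tested.

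**Figure D3:**
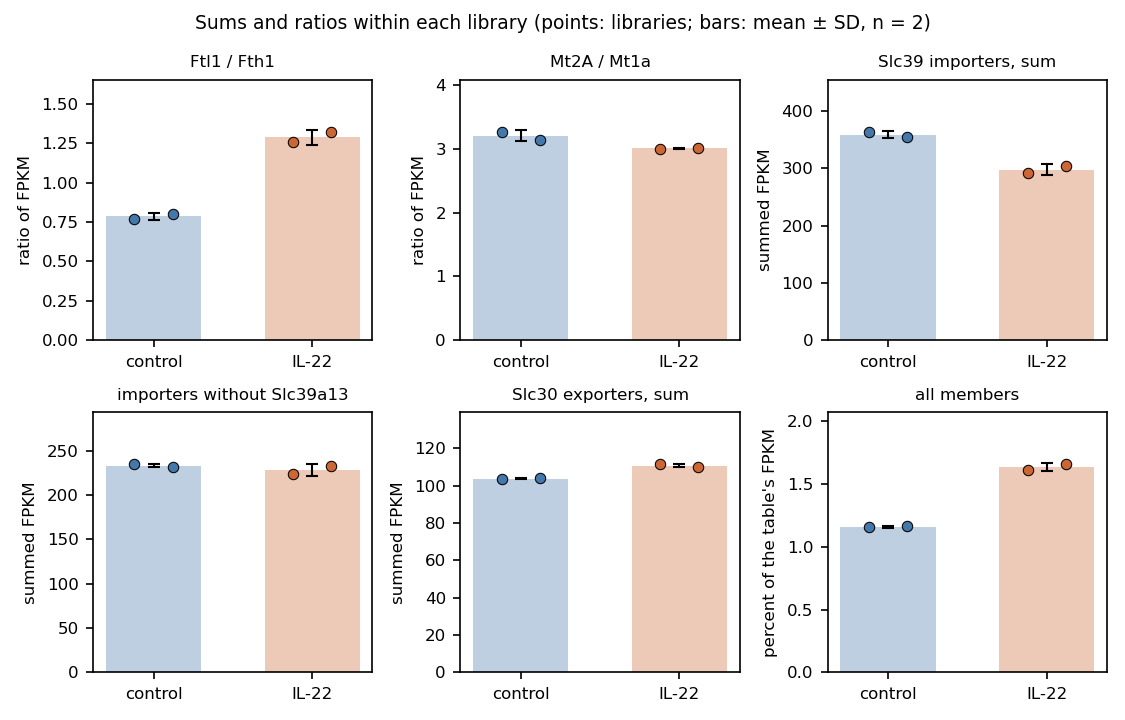
Ratios and sums of FPKM within each library (points), with the mean and SD of 2 libraries per group. The Ftl1 to Fth1 ratio is 0.772 and 0.800 in controls, 1.26 and 1.32 with IL-22, and the importer sum separates the groups only with Slc39a13 included.

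Among the iron genes, the light chain of ferritin rose and the heavy chain did not pass. Ftl1, whose product helps to mineralise iron inside the ferritin shell, measured 2492 and 2531 FPKM in controls and 4337 and 4558 FPKM with IL-22. It rose 1.77-fold, from 2512 ± 27.0 to 4448 ± 156 FPKM (0.82 ± 0.07, limma adjusted p = 1.43e-05). With quantile normalization the difference of Ftl1 was smaller, 0.51, and still passed. Fth1, whose product oxidises the iron that enters, measured 3229 and 3162 FPKM in controls and 3453 and 3448 FPKM with IL-22. Its difference of 0.11 ± 0.07 did not pass (limma adjusted p = 0.179, 95% interval from -0.04 to 0.26), and was -0.083 with quantile normalization. Within each library, Ftl1 stood at 0.772 and 0.800 of Fth1 in controls but at 1.26 and 1.32 times Fth1 with IL-22, so the order of the chains turned. Both were among the most abundant rows of the table, at level ranks 14 and 16 of 17778. Ferritin genes have many near-identical copies in the genome, between which reads may have been split, and the control of ferritin by iron acts largely on translation, which was not measured.

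Tfrc, which encodes the transferrin receptor and is stabilised as mRNA when iron is short, measured 12.8 and 13.1 FPKM in controls and 9.42 and 9.02 FPKM with IL-22. It fell to 0.713 of its control level (-0.45 ± 0.09, limma adjusted p = 0.0028), and the groups did not overlap. Slc11a2 encodes DMT1, which moves iron out of endosomes after transferrin uptake. It measured 7.90 and 9.20 FPKM in controls and 11.4 and 10.9 FPKM with IL-22. The rise (0.35, limma adjusted p = 0.0188) lost its call without control library 1, without IL-22 library 1 and without the expression minimum (over 16 alternatives, limma gave adjusted p between 0.00934 and 0.0971).

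Slc40a1 encodes ferroportin, the iron exporter of animal cells. It was under the test minimum at 0.120 and 0.125 FPKM in the control libraries and 0.776 and 0.887 FPKM in the IL-22 libraries, 6.78 times the control mean. Both IL-22 libraries were well above both controls, and with no expression minimum the gene was called higher (0.71 on the log2 scale, limma adjusted p = 0.00340). Slc11a1, the related transporter of macrophage phagosomes, was at 0.271 and 0 FPKM in controls and 0.187 and 0 FPKM with IL-22. These levels are close to the lowest that the table resolves.

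Iron regulatory proteins bind the mRNAs of ferritin and of the transferrin receptor when iron is low. Aco1, which encodes iron regulatory protein 1 and serves as an aconitase when iron is plentiful, measured 29.9 and 29.8 FPKM in controls and 22.0 and 22.3 FPKM with IL-22. The libraries of each group were close together, and Aco1 fell to 0.742 of its control level (-0.41 ± 0.07, limma adjusted p = 0.00133). Ireb2, which encodes iron regulatory protein 2, measured 5.19 and 5.05 FPKM in controls and 4.89 and 3.22 FPKM with IL-22. It did not pass (-0.29, limma adjusted p = 0.148), and its size rested on IL-22 library 2: the difference was -0.54 without IL-22 library 1, where it passed, and -0.054 without IL-22 library 2 (over 15 alternatives, limma gave adjusted p between 0.0147 and 0.807).

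The Steap family includes metalloreductases, which reduce iron and copper before transport. Of 3 tested Steap genes, 0 passed by limma, where 58.4% of all tested genes did. Under every alternative Steap2 and Steap3 did not pass either. IL-22 and control libraries did not overlap for any of these 3, where 80.1% of all tested genes were separated in this way. Steap1 measured 67.2 and 75.6 FPKM in controls and 64.3 and 59.8 FPKM with IL-22 (-0.20 ± 0.08, limma adjusted p = 0.0556). It passed as lower with equal summed FPKM and without control library 1 (over 16 alternatives, limma gave adjusted p between 0.0182 and 0.297). Steap2 was at 27.0 ± 0.525 and 29.4 ± 1.15 FPKM, and Steap3, the ferrireductase of transferrin endosomes, at 21.6 ± 1.01 and 23.7 ± 1.95 FPKM. Steap4, known from adipose tissue and inflammation, was at 0 in all 4 libraries. At an unadjusted p under 0.05, 1 of the 3 tested was lower and 0 were higher.

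Copper importers rose. Slc31a1 encodes CTR1, the high-affinity copper importer of the plasma membrane, and measured 27.7 and 29.5 FPKM in controls and 38.9 and 38.3 FPKM with IL-22. It rose 1.35-fold (0.42 ± 0.07, limma adjusted p = 0.00114). Slc31a2, which encodes the related vesicle protein CTR2 and lies near Slc31a1 in the genome with 1 gene between, measured 3.63 and 3.55 FPKM in controls and 5.997 and 5.992 FPKM with IL-22. It rose 1.67-fold (0.61 ± 0.11, limma adjusted p = 0.00175), and for both genes every IL-22 library was above every control. Atp7a, the copper pump that loads secreted enzymes and exports copper, measured 6.62 and 6.54 FPKM in controls and 7.14 and 6.81 FPKM with IL-22 and did not pass (0.072 ± 0.10, limma adjusted p = 0.575, 95% interval from -0.16 to 0.31). Atp7b, the pump of liver, was under the test minimum at 0.115 and 0.0717 FPKM in controls and 0.318 and 0.445 FPKM with IL-22. Without the minimum it was called higher (limma adjusted p = 0.0232).

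By level, ferritins and metallothioneins dwarfed the transporters. Fth1, Ftl1, Mt1a and Mt2A together held 90.7% and 90.6% of the summed FPKM of the 43 genes in controls and 94.1% and 94.3% with IL-22. All 43 genes together went from 1.15% and 1.16% of the FPKM of the table to 1.61% and 1.66%.

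**Figure D4:**
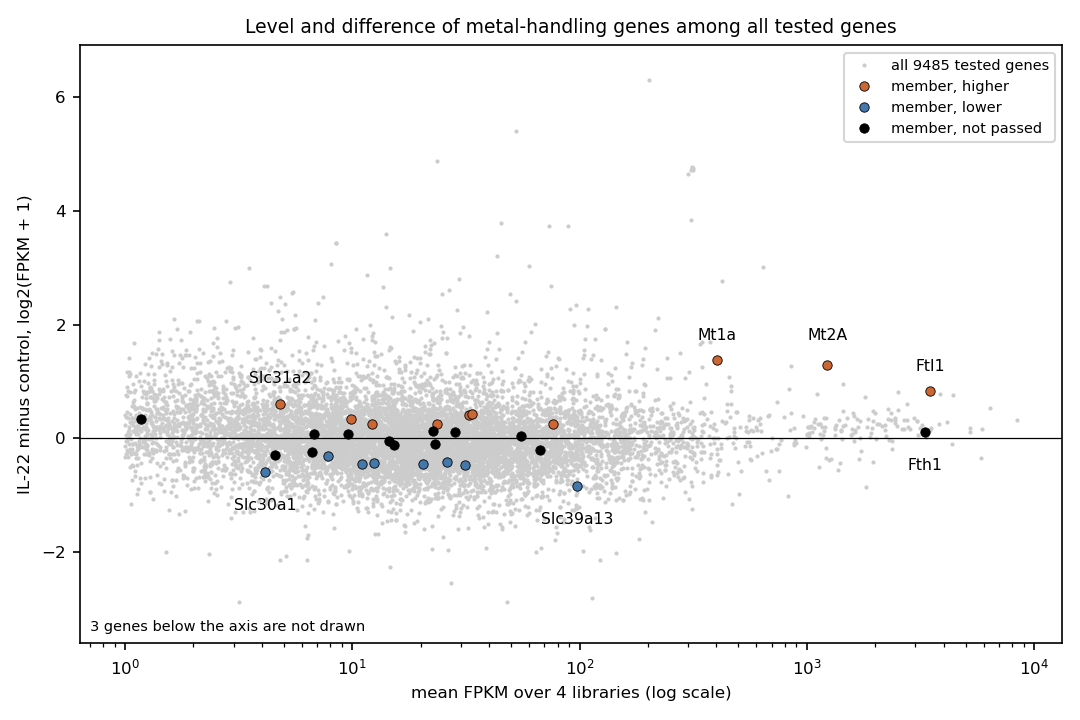
Mean FPKM over 4 libraries (log axis) against the difference between IL-22 and control on the log2(FPKM + 1) scale, for 9485 tested genes (grey) and the 31 tested metal-handling genes (coloured by call); 3 genes below -3.6 are not drawn. Mt1a, Mt2A and Ftl1 lie at 1.37, 1.28 and 0.82 among genes of high level. Of 208 tested genes with at least the mean level of Mt1a, 11 were called higher by at least the difference of Ftl1. Both limits were taken from the values of Mt1a and Ftl1, so Mt1a, Mt2A and Ftl1 are among these 11 by construction. Most other metal genes lie within the grey cloud.

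Other genes linked to these metals were counted by list, to be read against the 27.6% higher and 30.8% lower of all tested genes. Of 16 tested iron genes outside the 43, 7 were higher (43.8%) and 2 lower (12.5%), with a median of 0.13. Ceruloplasmin (Cp), the copper-bearing oxidase that works with ferroportin, was at 0.793 and 1.23 FPKM in controls and 3.25 and 2.56 FPKM with IL-22 (0.96, limma adjusted p = 0.00142). Hfe, which takes part in iron sensing at the transferrin receptor, fell from 8.88 and 7.81 FPKM to 4.18 and 4.39 FPKM (-0.82). The mitochondrial iron importer Slc25a37 (0.76) and the second transferrin receptor Tfr2 (0.65) rose, the latter having met the test minimum through its IL-22 libraries alone, at 2.19 and 1.87 FPKM against 0.924 and 0.926 FPKM. Lcn2, which binds iron-laden siderophores, was under the test minimum and read 0.978 and 1.14 FPKM with IL-22, while the controls were listed at 0. Hamp, the gene of the iron hormone hepcidin and a STAT3 target in liver, was at 0.670 FPKM in control library 1 and at 0 in the other libraries. Lcn2 and Hamp were named after their values were seen.

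Of 13 tested copper genes outside the 43, 6 were higher (46.2%) and 1 lower (7.69%), where 27.6% and 30.8% of all tested genes were, with a median of 0.11. Lox, the copper enzyme that cross-links collagen, rose from 20.8 and 22.2 FPKM to 47.0 and 51.2 FPKM (1.15, limma adjusted p = 4.99e-06). The copper chaperones Cox17 (0.69) and Atox1 (0.48), which serve cytochrome oxidase and the copper pumps, and the copper enzyme gene Pam (0.68) rose with it, and the member that fell was Sco1 (-0.46). Of 8 tested genes of the zinc list outside the 43, 4 were higher and 0 lower by limma (4 and 0 at an unadjusted p under 0.05). The same 27.6% and 30.8% apply, and the median was 0.31. These 4 were Mmp9, a zinc protease gene (1.36), the phosphatase gene Alpl (0.53), and the zinc-finger genes Zfand3 (0.51) and Zfand6 (0.44). They encode zinc-binding enzymes and zinc-finger proteins, so the count does not describe zinc transport or storage. Mmp9, at 0.437 and 0.306 FPKM in controls against 2.50 and 2.54 FPKM, met the test minimum through its IL-22 libraries alone.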

How the data were processed

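Poly(A) RNA from 4 samples of RSC96 cells, 2 per group, was sequenced by Illumina HiSeq (per the labels' protocols). FPKM per gene and library are the unit that the authors deposited. The submitters' processing notes name TopHat2, Cuffdiff and the build rn5, without versions or roles. How rows were annotated, filtered or scaled, and whether strand was used, is not given in the sources used here. A deposited lncRNA table was not used here.

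Rows whose mean over 4 libraries reached 1 FPKM were fitted by limma 3.58.1 (R 4.3.3) after log2(FPKM + 1) (trend, two-sided, Benjamini-Hochberg over 9485 rows, threshold 0.05, no covariates), and the fit was tested on simulated data. Folds are ratios of mean FPKM. Differences on this scale understate the change of low genes. The members, lists and roles were chosen with earlier results of these data known. Members past the threshold or above 0 get values, and full statistics go to the 12 largest differences past it and to genes picked for their role. Of each pathway list up to 4 genes past the threshold are named. Of 163 pathway and marker genes 155 had a row by symbol; a few are not reported here by name. Promoters are RefSeq sequences of GRCr8. In them, 4 motifs were searched on both strands: metal response element (TGCACNC or TGCGCNC), STAT site (TTCNNNGAA), hypoxia response element (ACGTG) and antioxidant response element (TGACNNNGC). Matches of different motifs overlapped in 3 member promoters. Alternatives were pseudocounts, filters, scalings, limma settings, summed duplicate rows, a replicate block and leaving out each library. The fits without a library assume that the lone one varies like the other group. Figures used matplotlib 3.10.9 in Python 3.11.15.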

Additional observations from a re-analysis of the deposited data

How the results depend on the processing

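Under 16 alternatives the number of metal genes called higher lay between 7 and 11 (10 as reported) and the number called lower between 7 and 10 (8 as reported), each within 1.5 times the reported count. Of the 18 called genes 12 kept call and direction under every alternative run, among them Mt1a, Mt2A, Ftl1, Slc39a13, Slc30a1, Slc31a1, Slc31a2, Tfrc and Aco1. The other 6 (Slc11a2, Slc30a4, Slc30a6, Slc39a7, Slc39a11 and Slc39a14) lost the call under at least 1, and 4 of 13 genes that did not pass did so under at least 1 (Ireb2, Slc39a5, Slc39a8 and Steap1). Slc39a5 passed as lower with quantile normalization, with equal summed FPKM and without the trend (limma adjusted p from 0.0383 to 0.290 over 16 alternatives), and Slc39a8 passed as higher without the trend (limma adjusted p from 0.0431 to 0.738 over 15 alternatives). The cause was not tested. With the replicate number as a block, 10 metal genes were higher and 9 lower, and over all tested genes 2755 were higher and 3070 lower. Steap1 then passed as lower (limma adjusted p = 0.0273, within its range from 0.0182 to 0.297), and no other metal gene changed its call. The titles share replicate numbers without saying what they mark, and the deviations of same-numbered libraries from their group means did not correlate across genes (r = -0.0020), so the numbers were not taken as pairs. Equal summed FPKM moved the median of all genes from -0.022 to -0.086, and the other scalings moved it less. Absolute depth is unknown, and the counting error of values under 1 FPKM, such as those of Slc40a1, Atp7b and Slc30a3, was not estimated and may be large.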

Other observations

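Genes that build iron-sulfur clusters and heme, the main uses of iron inside cells, gave 2 higher and 9 lower of 27 tested by limma, or 7.41% and 33.3%, where 27.6% and 30.8% of all tested genes were higher and lower, and the median difference was -0.072. All 9 lower genes were among 19 iron-sulfur genes, while of 8 heme enzymes, split off after values were seen, 0 passed (1 was higher and 0 lower at an unadjusted p under 0.05). Ciapin1, of the cytosolic assembly pathway, fell from 49.6 and 44.0 FPKM to 26.6 and 25.7 FPKM (-0.81, limma adjusted p = 4.26e-05). Glrx5 (-0.65) and Bola3 (-0.58), of the mitochondrial pathway, and the cytosolic scaffold gene Nubp2 (-0.57) also fell. The scaffold gene Iscu, named after its values were seen, fell by 0.57 on the log2 scale. The chaperone gene Hspa9 rose (0.39). Of the heme synthesis enzymes, picked after their values were seen, Alas1, which opens the pathway, measured 16.9 and 18.8 FPKM in controls and 18.4 and 21.8 FPKM with IL-22 and did not pass (limma adjusted p = 0.200).

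Glutathione and oxidant response genes, which handle the oxidants that free iron and copper can produce, gave 7 higher (35%) and 5 lower (25%) of 20 tested, near the 27.6% and 30.8% of all tested genes, with a median of 0.025. Gpx1, the main glutathione peroxidase, fell from 197 and 199.8 FPKM to 26.3 and 29.1 FPKM (-2.80, limma adjusted p = 2.74e-08), a far larger difference than that of any metal gene tested. Slc7a11, the cystine importer, rose from 0.183 and 0.175 FPKM to 3.44 and 2.53 FPKM (1.75), and met the test minimum through its IL-22 libraries alone. Nfe2l2, which encodes NRF2, a transcription factor of the oxidant response, rose by 0.69 and the catalase gene Cat by 0.68. Nqo1 (-0.66), Gclc (-0.65) and Gclm (-0.55), known targets of NRF2 and named after their values were seen, fell.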
